A study of Homo sapiens with 6 samples.

Results

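NOTCH signalling was followed through 10 genes by RNA sequencing of untreated and B35-treated A549, a cell line derived from human non-small cell lung cancer. The genes were taken by symbol, from GENCODE release 29, out of the 58735 gene identifiers in the deposited counts: the receptors NOTCH1, NOTCH2 and NOTCH3, the ligands JAG1 and JAG2, the receptor-modifying enzyme LFNG, the transcription factor RBPJ, and the target genes HES1, HES4 and HEY1. All 10 were found, and all 10 had enough counts to be tested. The 3 control libraries came from wild-type A549 cells left untreated, and the 3 B35 libraries from wild-type A549 cells given B35 at 2 µM, all harvested at 72 h. B35 is named in the series title as inhibiting LSD1 (gene KDM1A), which removes methyl groups from histones, and the question is which genes respond to it. No solvent is named for the controls. Nothing in the labels says that replicates were grown separately, and the p-values therefore reflect the spread among these libraries, which may be technical.

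NOTCH receptors are single-pass membrane proteins that are activated by Jagged or Delta ligands on a neighbouring cell. Ligand binding leads to cleavage by ADAM10 and then by gamma-secretase, and the freed intracellular domain moves to the nucleus, binds the DNA-binding protein RBPJ with a Mastermind coactivator, and switches on targets such as the HES and HEY repressor genes. Without that domain RBPJ is held with corepressors, and LSD1 has been described in such complexes. In the airway NOTCH activity is known for favouring secretory over neuroendocrine cell fates.

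Of the 10 genes, 1 rose with B35 and 2 fell. NOTCH3 was 2.51-fold higher, while the target genes HES1 and HES4 were 1.26-fold and 1.44-fold lower (adjusted p under 0.05 in edgeR's quasi-likelihood test, by Benjamini and Hochberg's method over all 14773 genes tested). Over all genes tested, 15.4% changed, 8.82% upwards and 6.59% downwards. The same 3 genes were those whose B35 and control libraries did not overlap, which was the case for 36.3% of all genes tested. The median log2 fold change was 0.05 over the 10 genes and 0.01 over all genes. In bulk RNA, fewer cells expressing a gene and less RNA of it per cell cannot be told apart.

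Library totals ran from 17141478 to 18530670 counts. Keratin levels differed. KRT7, KRT8 and KRT18 had control means of 217, 241 and 163 FPKM (the authors' counts normalised for gene length and a library scale). KRT19 was at 0.103 and CDH1, encoding E-cadherin, at 0.217 FPKM in controls. Worked out from counts and exon lengths, that library scale was 0.982 to 0.988 times the library total in controls and 1.01 to 1.05 times with B35. Of 5 alveolar type 2 markers, 3 had fewer than 20 counts over all 6 libraries, as had 5 of 6 blood, 4 of 6 fibroblast and 1 of 5 endothelial markers. The alveolar lipid transporter ABCA3 was at 11.02 FPKM in controls and 13.3 FPKM with B35, and the endothelial cadherin CDH5 at 0.999 and 1.24 FPKM, and neither passed (edgeR adjusted p = 0.0627 and 0.268). KRT8 fell and EPCAM and CLDN4 rose with B35 (edgeR adjusted p = 0.00611, 0.00248 and 0.00495). The summed FPKM of the 7 epithelial markers ran from 619 to 639 in controls and from 490 to 574 with B35, and their part in the results below was not tested. KDM1A was at 198 ± 2.56 CPM in controls (counts put on a shared scale with TMM) and 184 ± 8.97 CPM with B35 (SD, n = 3 each) without overlap, but did not pass the test (log2 −0.11 ± 0.084, edgeR adjusted p = 0.432). B35 replicate 1 stood apart from the other B35 libraries on the second principal component, which held 20.9% of the variance.

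The levels of the 10 genes can be compared with one another only per length, in FPKM. HES4 was the most abundant, with a mean of 124 FPKM over the 6 libraries, followed by HES1 at 29.99 FPKM, and neither range touched that of the next gene. NOTCH2 (15.8 FPKM) and JAG2 (13.6 FPKM) came next, with overlapping ranges and NOTCH2 higher in 5 of 6 libraries. NOTCH1 (7.87 FPKM), RBPJ (6.36 FPKM) and LFNG (6.25 FPKM) were not separated by their ranges. NOTCH3 (2.12 FPKM), JAG1 (1.97 FPKM) and HEY1 (1.41 FPKM) were lowest. NOTCH3 was above JAG1 in 3 of 6 libraries, the 3 with B35.

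**Figure D1:**
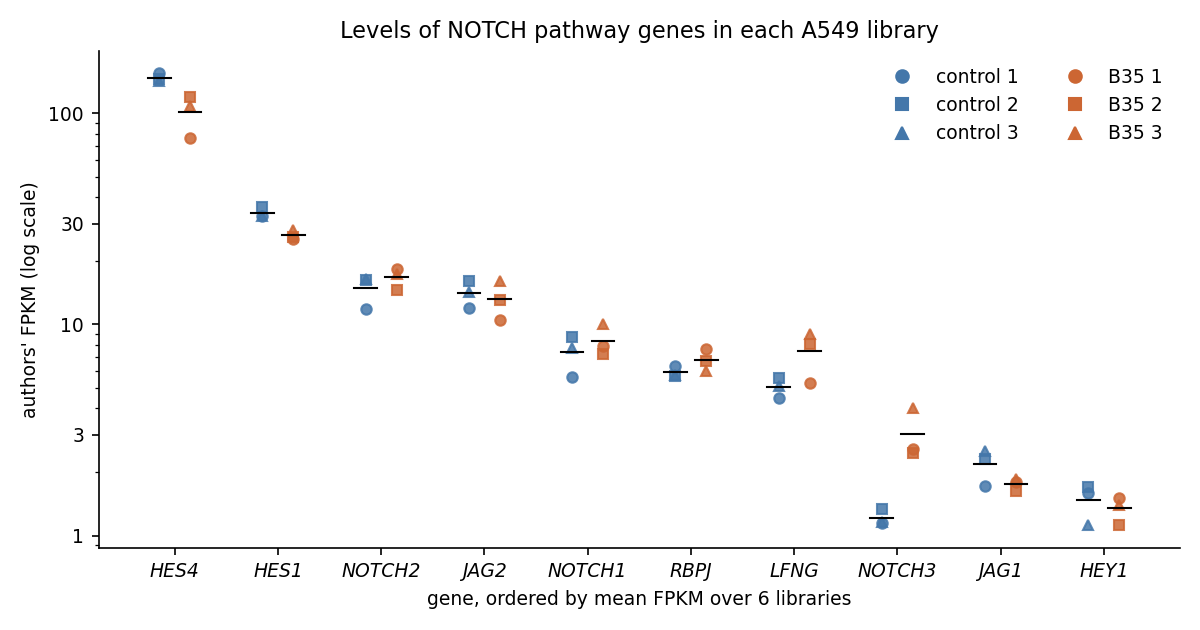
FPKM of each gene in each library on a log scale, with controls in blue, B35 in orange, the replicate number as the marker shape and the group mean as a black line. NOTCH3 lies between 1.15 and 1.34 FPKM in controls and between 2.45 and 4.04 FPKM with B35, and HES1 and HES4 are lower in every B35 library than in any control.

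NOTCH3 was the receptor that changed. NOTCH3 (ENSG00000074181, hg38 chromosome 19, 15159038 to 15200981, minus strand) is the receptor best known from vascular smooth muscle, and it is also a direct target of active NOTCH in several cell types. It was measured at 10.9, 12.7 and 10.9 CPM in control replicates 1, 2 and 3 and at 24.6, 23.2 and 38.7 CPM in B35 replicates 1, 2 and 3. Each B35 library was above each control, with replicate 3 well above the other B35 libraries. B35 gave a log2 difference of 1.33 ± 0.19 (SE), with an edgeR adjusted p of 0.00183. It was 1.06 without B35 replicate 3 and passed the test in all 16 alternative fits, with adjusted p from 1.45e-16 to 0.0148.

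NOTCH1 and NOTCH2 did not pass. NOTCH1 (chromosome 9, 136494433 to 136545786, minus strand), the receptor mutated in T-cell leukaemia, was at 58.9, 91.4 and 80.0 CPM in controls and 83.1, 75.4 and 106 CPM with B35. NOTCH2 (chromosome 1, 119911553 to 120069626, minus strand), a receptor needed for kidney and bile duct development, was at 200, 275 and 277 CPM in controls and 312, 246.5 and 297 CPM with B35. Both were lowest in control replicate 1 and the groups overlapped. The fold change of NOTCH1 was 1.15 with a 95% interval of 0.892 to 1.48, and that of NOTCH2 was 1.14 with an interval of 0.923 to 1.40 (edgeR adjusted p = 0.453 and 0.392), so both intervals include no change. NOTCH2 has near-identical partial copies, of which NOTCH2NLA had 10 to 33 counts per library, and reads could be split between them. The fourth receptor, NOTCH4, had 14 counts in controls and 30 with B35 and was too low to test.

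The make-up of receptor transcripts is described here by shares, with no test. NOTCH3 was 5.27% ± 0.814 of the summed receptor FPKM in controls and 10.6% ± 2.02 with B35 (SD, n = 3 each), at 6.16%, 5.08% and 4.57% in the controls and 8.94%, 10.1% and 12.9% in the B35 libraries. These values did not overlap. NOTCH2 supplied most receptor transcript in both groups, at 63.4% ± 1.73 and 59.5% ± 4.17. The summed receptor FPKM ran from 18.7 to 26.4 in controls and from 24.3 to 31.4 with B35, which overlap.

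**Figure D2:**
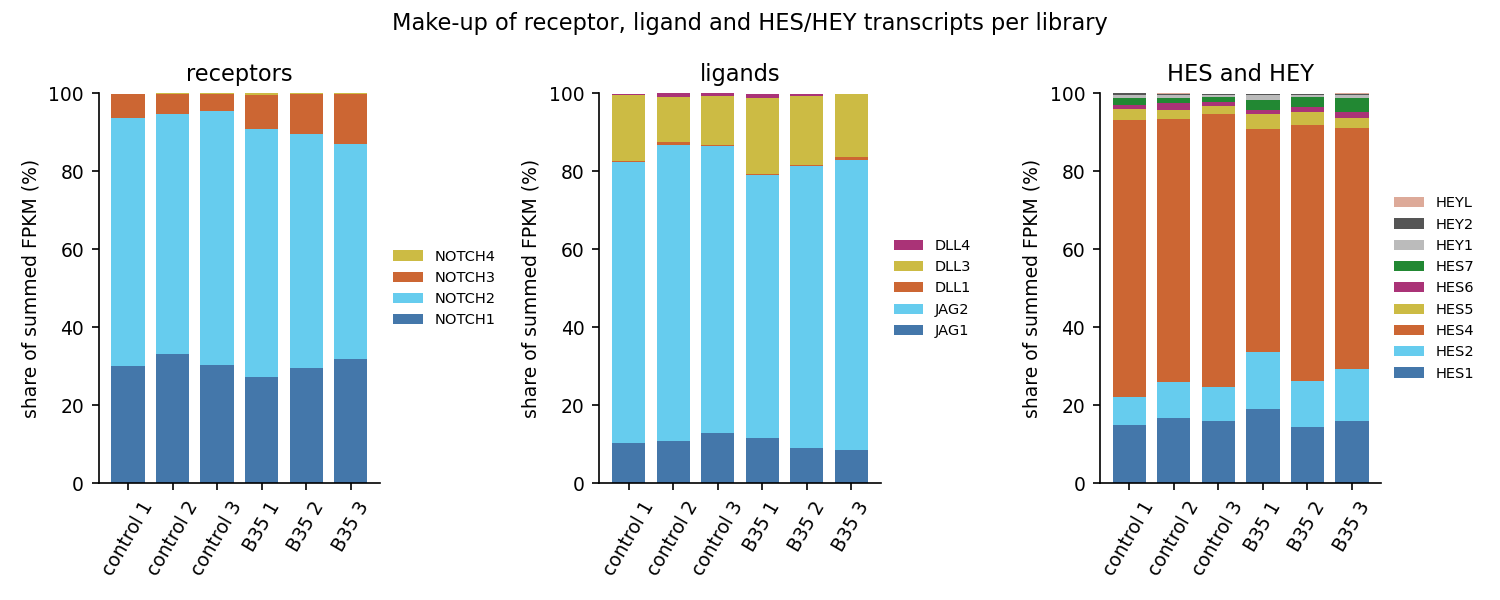
Stacked bars give each gene's share of the summed FPKM of the receptors, of the Jagged and Delta ligands, and of the HES and HEY genes, for each library. NOTCH2, JAG2 and HES4 are the main component of their set in all 6 libraries, and the NOTCH3 band is at most 6.16% in controls and at least 8.94% with B35.

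Neither Jagged ligand passed the test. JAG1 (chromosome 20, 10637684 to 10673999, minus strand), the ligand mutated in Alagille syndrome, was at 16, 21.5 and 23.55 CPM in controls and 17.0, 15.2 and 17.6 CPM with B35. Control replicate 1 lay within the B35 range while the other controls were above it. Its fold change was 0.814 with a 95% interval of 0.645 to 1.03 (edgeR adjusted p = 0.214). JAG2 (chromosome 14, 105140981 to 105168824, minus strand), a ligand of limb and thymus development, was at 76.8, 103 and 91.5 CPM in controls and 68.05, 84.1 and 105 CPM with B35. Its fold change was 0.949, with an interval of 0.748 to 1.20 (edgeR adjusted p = 0.792). The group ranges overlapped, and the sign of JAG2 turned when control replicate 2 or B35 replicate 1 was left out (log2 0.02 and 0.06). JAG2 shares 7.33% of its exon length with the gene AL512356.1, which had no counts, and JAG1 shares 0.85% with an antisense gene. JAG2 made up 73.9% ± 1.91 of Jagged and Delta FPKM in controls and 71.4% ± 3.49 with B35, and JAG1 11.4% ± 1.41 and 9.71% ± 1.64.

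LFNG, which adds a sugar to the receptors in the Golgi and so changes which ligands they answer to, was at the edge of the threshold. LFNG (chromosome 7, 2512529 to 2529177, plus strand) was at 15.4, 19.2 and 17.5 CPM in controls and 18.3, 27.7 and 31.6 CPM with B35. B35 replicate 1 lay within the control range, and the other B35 libraries lay above it. The log2 fold change was 0.58 ± 0.18 (SE, a fold of 1.49), with edgeR adjusted p = 0.0582. Without B35 replicate 1 it was 0.77 with an adjusted p of 0.0014. It passed in 7 of 16 alternative fits, among them DESeq2 (adjusted p = 0.0224) and the fit with GC and exon length trends removed (adjusted p = 0.00876), and missed in limma-voom (adjusted p = 0.0816).

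RBPJ, the DNA-binding protein through which all 4 receptors act, was measured at 58.9, 53.0 and 53.2 CPM in controls and at 72.1, 62.7 and 56.8 CPM with B35. It lies on chromosome 4, 26163455 to 26435131, plus strand. B35 replicate 3 was below control replicate 1, so the groups overlapped. The fold change was 1.16 with a 95% interval of 0.981 to 1.37 (edgeR adjusted p = 0.214), and RBPJ passed in none of the 16 alternative fits, where adjusted p ran from 0.0566 to 0.472. Of its annotated processed pseudogenes, the 4 found by name had no counts.

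Among the target genes, HES1 and HES4 fell. Both encode basic helix-loop-helix repressors that are switched on by RBPJ and that hold back differentiation factors. HES1 (chromosome 3, 194136145 to 194138732, plus strand) was at 67.8, 74.25 and 67.0 CPM in controls and at 52.8, 53.95 and 58.7 CPM with B35. All 3 B35 libraries were below all controls. B35 gave a log2 difference of −0.34 ± 0.095 (SE), with an edgeR adjusted p of 0.0363. HES4 (chromosome 1, 998962 to 1000172, minus strand) was at 173, 163 and 159 CPM in controls and at 86.1, 134 and 124 CPM with B35. The groups did not overlap, and B35 replicate 1 was well below the other B35 libraries. The log2 difference was −0.53 ± 0.14 (SE), with an edgeR adjusted p of 0.0321, and −0.36 without B35 replicate 1 (adjusted p = 0.00865).

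Neither HES1 nor HES4 passed after omission of a control library. Without control replicates 1, 2 and 3 in turn, the adjusted p of HES1 was 0.0876, 0.141 and 0.11, and that of HES4 was 0.112, 0.0722 and 0.0878. HES1 also missed the threshold without B35 replicate 2 (adjusted p = 0.0963), but passed without B35 replicate 1 or 3 (0.0287 and 0.0429). HES4 passed without B35 replicates 1, 2 and 3 in turn (adjusted p = 0.00865, 0.022 and 0.0477). Both kept a negative sign in all 16 alternative fits, from −0.38 to −0.29 for HES1 and from −0.66 to −0.36 for HES4 on the log2 scale.

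HEY1, a related repressor known from blood vessels and heart valves, did not pass. HEY1 (chromosome 8, 79764010 to 79767863, minus strand) was low, at 5.185, 5.54 and 3.63 CPM in controls and 4.97, 3.66 and 4.64 CPM with B35. The group ranges overlapped almost entirely. Its fold change was 0.924 with a 95% interval of 0.663 to 1.29 (edgeR adjusted p = 0.772), and its sign turned without B35 replicate 2 (log2 0.0005). The gene had 61 to 100 counts per library, which left the widest standard error of the 10 genes at 0.22 on the log2 scale.

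HES4 made up 69.5% ± 1.83 of the summed HES and HEY FPKM in controls and 61.6% ± 4.25 with B35, and that sum was 211 ± 7.90 FPKM in controls and 163 ± 26.3 FPKM with B35, without overlap between the groups (202.5 to 217 against 133 to 181 FPKM, with no test). HES1 made up 15.9% ± 0.819 and 16.4% ± 2.37 of it, which overlap.

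**Figure D3:**
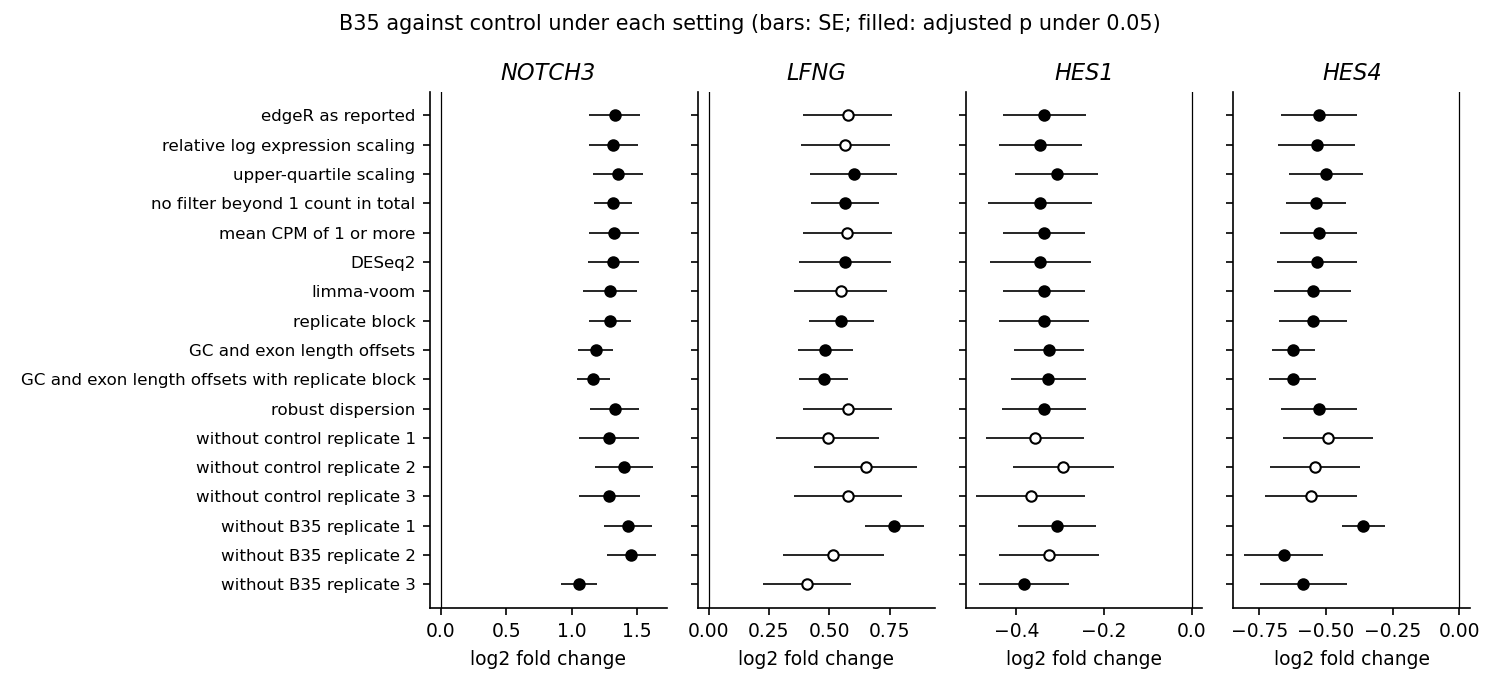
Log2 fold change of NOTCH3, LFNG, HES1 and HES4, with B35 compared to control, under the reported fit and each alternative. Bars are SE, filled points passed at an adjusted p under 0.05, and each panel has its own axis. NOTCH3 is filled throughout, LFNG in 7 of the 16 alternatives, and HES1 and HES4 are open when any control library is left out.

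The promoters of the 3 genes that passed are shown because RBPJ acts on HES1 through sites just before its start. The sequences are the 250 bases before the RefSeq transcript start (GRCh38.p14), written 5′ to 3′ on the gene's strand, and capitals mark the RBPJ core TGGGAA and the HES N-box CACNAG on either strand. They lie at chr3:194135898-194136147 on the plus strand for HES1, chr1:1000098-1000347 on the minus strand for HES4 and chr19:15200996-15201245 on the minus strand for NOTCH3.
HES1: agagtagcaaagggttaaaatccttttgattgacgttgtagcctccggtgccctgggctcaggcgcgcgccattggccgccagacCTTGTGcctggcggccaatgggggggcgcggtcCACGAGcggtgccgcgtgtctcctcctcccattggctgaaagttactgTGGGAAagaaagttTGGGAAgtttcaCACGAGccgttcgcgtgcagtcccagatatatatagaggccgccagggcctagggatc
HES4: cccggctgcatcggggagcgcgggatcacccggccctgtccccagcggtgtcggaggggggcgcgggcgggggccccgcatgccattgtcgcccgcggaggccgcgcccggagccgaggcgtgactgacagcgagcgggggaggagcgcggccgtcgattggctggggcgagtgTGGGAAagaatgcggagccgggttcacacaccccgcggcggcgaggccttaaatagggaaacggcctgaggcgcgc
NOTCH3: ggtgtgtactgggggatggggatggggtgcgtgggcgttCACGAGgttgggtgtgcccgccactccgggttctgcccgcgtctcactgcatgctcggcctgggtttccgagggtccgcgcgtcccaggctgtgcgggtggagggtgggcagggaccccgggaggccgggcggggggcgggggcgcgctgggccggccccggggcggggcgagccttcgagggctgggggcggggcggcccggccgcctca

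HES1 held the RBPJ core at bases -84 to -79 and again at -70 to -65, and HES4 held it at -76 to -71. The longest run of letters that the HES1 and HES4 stretches shared on the gene's strand was TGTGGGAAAGAA, which contains the core and its long form GTGGGAA. It stood at bases -86 to -75 of HES1 and -78 to -67 of HES4, and 8 of the 35116 RefSeq promoter windows held it on either strand. This run was found after the sequences were seen. The NOTCH3 stretch held no RBPJ core and 1 N-box, at -211 to -206, while HES1 held 3 N-boxes before its start.

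Windows from 250 bases before to 50 after the start were at hand for 9 of the 10 genes, with HEY1 named only, in 14 windows since LFNG and RBPJ have several starts. The RBPJ core was in at least 1 window of 4 of the 9 genes (HES1, HES4, LFNG and RBPJ), and in 24.0% of all windows. The long form GTGGGAA was in 3 of the 9 genes (HES1, HES4 and RBPJ), and in 6.25% of all windows. The N-box CACNAG was in 6 of the 9 genes and 38.0% of all windows, and the E-box CACGTG in none of the 9 and 7.26% of all windows. A match is a string of letters, not a measured binding site, and genes with several windows had more chances to hold one. The 2 genes that fell both held the core, as did LFNG and RBPJ, which did not pass.

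**Figure D4:**
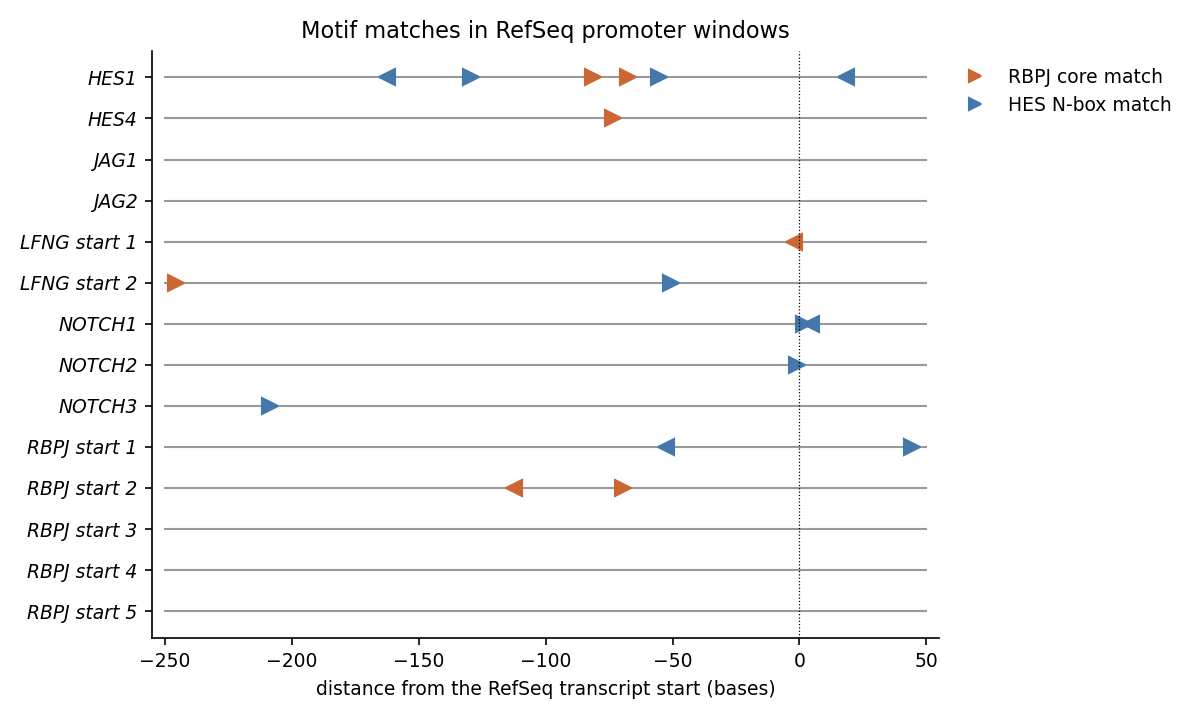
Matches to the RBPJ core (orange) and the HES N-box (blue) by distance from the RefSeq start, 1 line per promoter window, with arrowheads pointing along the strand of the match. HES1 has a pair of RBPJ core matches and HES4 has 1 match at nearly the same distance.

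The rest of the pathway was covered by 10 lists of 113 genes, of which 92 were tested and 14 rose and 3 fell, members included. Without the 10 genes above, 13 of 82 tested rose and 1 fell, beside 8.82% and 6.59% over all genes. Their median log2 fold change was 0.12, against 0.01 over all genes. Those shares also apply to the counts of each list below, where 1 riser or faller says nothing about the list as a whole. Over all lists, members included, the rises numbered 6, 8 and 6 without control replicates 1, 2 and 3 and 22 without B35 replicate 1. Falls over the same lists came to 1 without any 1 control and 5 without B35 replicate 1.

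Of 9 tested ligands and ligand-like proteins, 3 rose and none fell, beside 8.82% and 6.59% over all genes. DLK2, a Delta-like membrane protein that lacks the usual receptor-binding domain, rose from 3.74 ± 0.695 to 6.62 ± 0.753 CPM (edgeR adjusted p = 0.018, log2 difference 0.82 ± 0.20). DNER, a Delta-like protein of neurons, rose from 28.8 ± 2.07 to 38.3 ± 2.36 CPM (adjusted p = 0.025). MFAP2, a microfibril protein that can bind Jagged, rose from 1.05 ± 0.424 to 2.55 ± 0.449 CPM (adjusted p = 0.0287). None of these 3 calls survived every omission of a library. DLK2 missed without control replicate 1 or 3 or B35 replicate 2 or 3 (edgeR adjusted p = 0.0808, 0.0871, 0.0528 and 0.0534), and it shares 3.53% of its exon length with ABCC10 on the other strand. DNER missed without control replicates 1, 2 and 3 or B35 replicate 2 (adjusted p = 0.108, 0.0617, 0.0895 and 0.0759). MFAP2 missed without any library but B35 replicate 1 (adjusted p from 0.0507 to 0.0927).

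None of 7 tested genes for glycosylation of the receptors passed, and the most abundant of them, B4GALT1, which adds galactose, and POFUT1, which adds the fucose that LFNG extends, were at 420 ± 32.4 and 149 ± 14.4 CPM in controls and 458 ± 31.0 and 150 ± 3.90 CPM with B35. Of 15 tested endocytosis and ubiquitin regulators, only NEURL1B passed. NEURL1B, a ubiquitin ligase of the ligands, rose from 48.3 ± 4.30 to 77.8 ± 6.31 CPM (edgeR adjusted p = 0.00247, log2 difference 0.69 ± 0.11), and kept its call in all 16 alternatives.

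Among partners of RBPJ, L3MBTL3 rose and KAT2A fell. L3MBTL3, a methyl-lysine reader that has been described as a bridge between RBPJ and LSD1, was at 4.29, 3.99 and 3.69 CPM in controls and 9.27, 8.49 and 8.12 CPM with B35. All B35 libraries were above all controls, and the log2 fold change was 1.11 ± 0.16 (edgeR adjusted p = 0.00198). It was the only 1 of 19 tested corepressors that passed. Of 9 tested coactivators with RBPJ, 1 rose and 1 fell. KAT2A, a histone acetyltransferase, was at 83.7, 78.0 and 80.7 CPM in controls and 50.1, 52.2 and 60.4 CPM with B35 (log2 −0.57 ± 0.10, edgeR adjusted p = 0.00441). The groups lay far apart, and both L3MBTL3 and KAT2A kept their calls in all 16 alternatives. KAT2A shares 10.7% of its exon length with AC099811.2, which had no counts. MAML2, a Mastermind coactivator, rose from 26.9 ± 0.964 to 35.8 ± 3.75 CPM (edgeR adjusted p = 0.0289), and lost its call without control replicates 1, 2 and 3 or B35 replicate 2 (adjusted p = 0.0877, 0.106, 0.105 and 0.0687).

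Other genes named as NOTCH targets included several that rose. Of 10 tested genes in that list, which also has NOTCH3, 5 rose and none fell, beside 8.82% and 6.59% over all genes. Most of the listed genes are targets of other pathways too. IL7R, a cytokine receptor subunit of lymphocytes, was at 3.34, 3.99 and 2.02 CPM in controls and 10.9, 10.7 and 10.3 CPM with B35 (log2 1.76 ± 0.22, edgeR adjusted p = 0.000804). SOX9, a transcription factor of lung progenitors, was at 2.40, 2.38 and 3.21 CPM in controls and 8.14, 6.16 and 6.75 CPM with B35 (log2 1.40 ± 0.21, edgeR adjusted p = 0.00206). Both were low in all controls and kept their calls in all 16 alternatives. CDKN1A, the cell cycle inhibitor p21, rose from 122.5 ± 3.71 to 170.5 ± 19.1 CPM, and the growth regulator MYC from 237 ± 3.30 to 304 ± 6.36 CPM (edgeR adjusted p = 0.0109 and 0.0136). CDKN1A lost its call without control replicate 1 or 3 (adjusted p = 0.0547 and 0.0553), and MYC without control replicates 1, 2 and 3 (adjusted p = 0.0518, 0.0686 and 0.0957). Of 10 tested HES and HEY repressors and relatives, 1 rose and 2 fell, beside the same shares of 8.82% and 6.59%. The riser was BHLHE41, a repressor tied to the circadian clock, from 2.56 ± 0.643 to 4.38 ± 0.227 CPM (edgeR adjusted p = 0.0476), and it missed when any 1 library was left out (adjusted p from 0.0672 to 0.153).

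Of 14 neuroendocrine lineage genes that NOTCH activity is known to oppose, only 4 were tested, of which 1 rose and 3 did not pass. DLL3, SYP and HES6 had log2 fold changes of 0.36, 0.14 and −0.38 (edgeR adjusted p = 0.139, 0.848 and 0.387). UCHL1, a ubiquitin hydrolase of neurons and neuroendocrine cells, was at 4.29, 5.21 and 4.40 CPM in controls and 10.7, 9.93 and 9.91 CPM with B35. The groups were well apart (log2 1.14 ± 0.16, edgeR adjusted p = 0.00136), and the call was kept in all 16 alternatives. NEUROD1, INSM1 and NEUROG3, transcription factors of neuroendocrine cells, had no count in any of the 6 libraries, which allows up to 3 counts per library, a limit that covers counting error only.

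**Figure D5:**
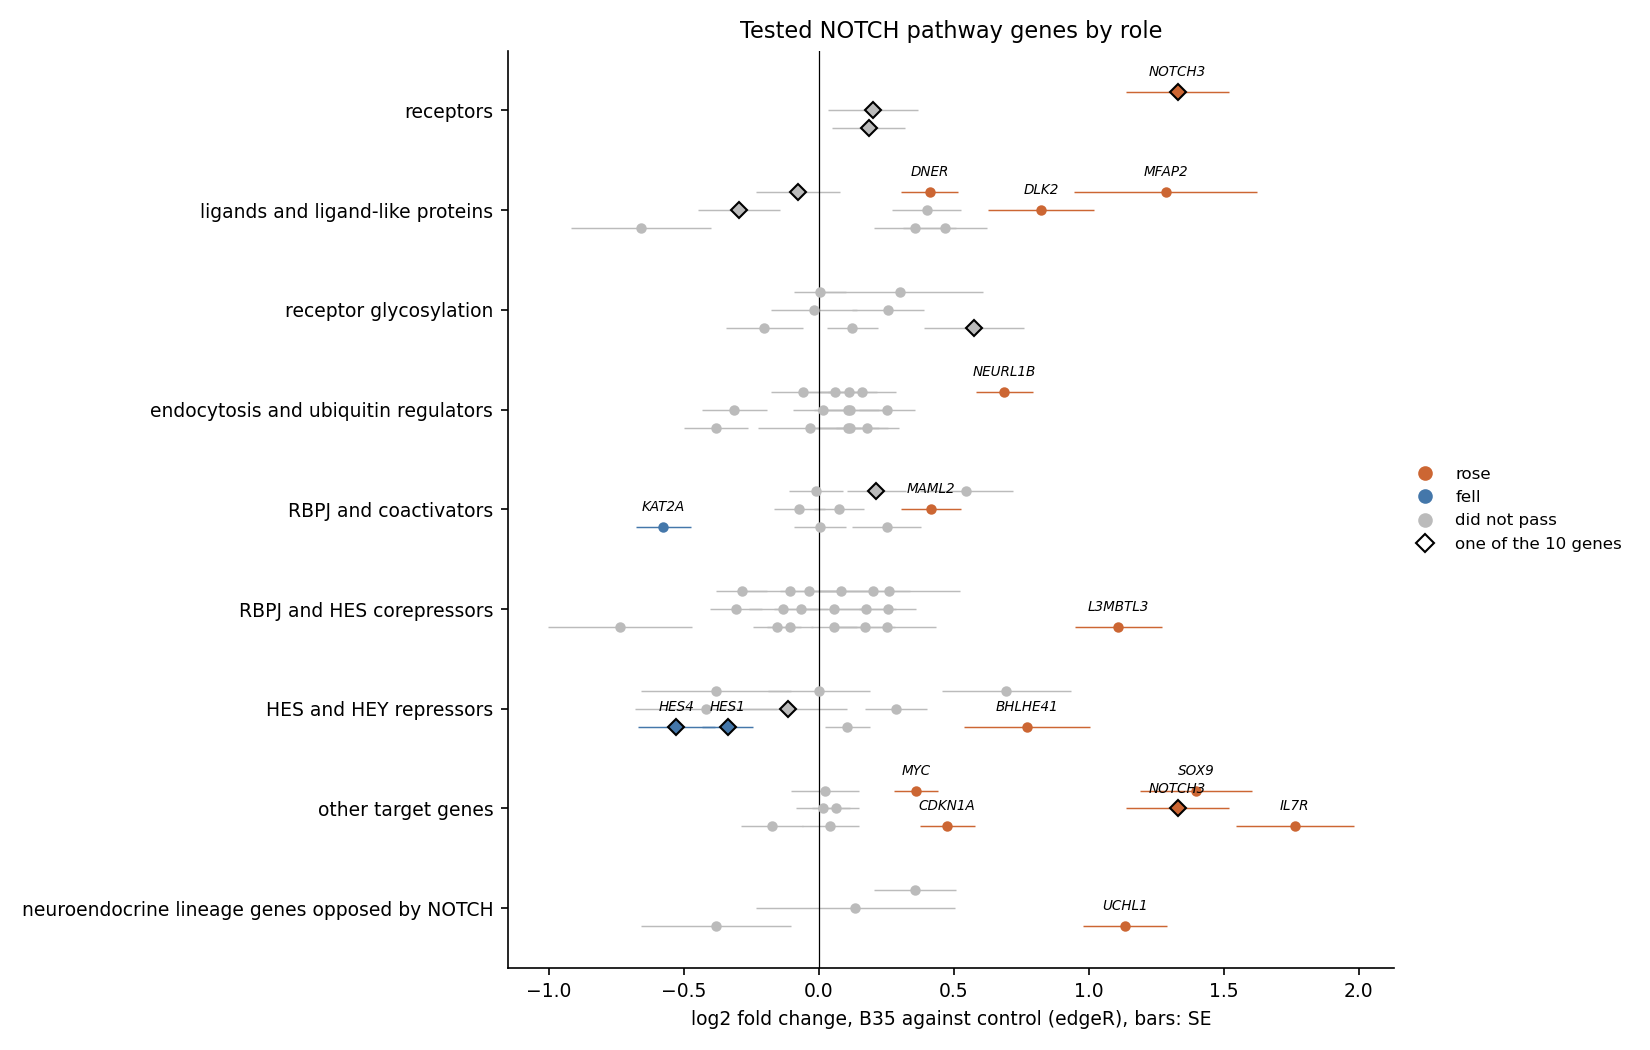
Log2 fold change with SE of the tested genes of 9 pathway lists by role, with the 10 genes as diamonds, rises in orange, falls in blue and genes that did not pass in grey. NOTCH3 stands in 2 lists, and HES1, HES4 and KAT2A are the 3 genes that fell.

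Across the 6 libraries, the genes whose log2 CPM followed that of NOTCH3 most closely, among 9845 genes at a mean of 10 CPM or more that share no exon with it, were PLEKHM1P1, SPAG4 and EPOR (Pearson r = 0.995, 0.994 and 0.993 over 6 libraries that fall into the same groups, given as a description). Like NOTCH3, SPAG4 was highest in B35 replicate 3, at 18.7 CPM against 12.3 and 13.3 CPM in the other B35 libraries and 6.08 to 6.98 CPM in controls. PLEKHM1P1 is a pseudogene whose reads could come from its parent gene.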

How the data were processed

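Per the labels' protocols, the 6 libraries (3 untreated, 3 with B35) were made from TRIzol-extracted total RNA using NEBNext Ultra reagents. The submitters' processing notes list HISAT2 (version 2.0.5), featureCounts (version 1.5.0-p3) and the hg38 build. No source states a strand setting. Each gene has a raw count and an FPKM value in every library's deposited file, per the file headers. The authors' FPKM served only for levels and shares.

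All 58735 identifiers matched GENCODE 29. Counts were tested with edgeR 4.0.16 in R 4.3.3 (filterByExpr, TMM, quasi-likelihood, two-sided, Benjamini-Hochberg over 14773 genes), with no replicate term. CPM values use TMM-scaled totals. The SE is the log2 fold change over the square root of F, and 95% intervals use its t quantile. No pair of replicates looked like 1 library deposited again (chi-square over degrees of freedom between 4.46 and 32.3).

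Simulated counts (14567 genes) were drawn from a negative binomial model with means and dispersions estimated from these libraries. The test recovered 37.3%, 80.3% and 98.4% of the 67, 66 and 64 genes changed 1.5-, 2- and 4-fold, with 10 false calls among 151. Far fewer genes changed there than the 15.4% called in the data, so recovery in the data may differ. Alternatives were other scalings and filters, DESeq2 1.42.0, limma-voom 3.58.1, robust dispersion, a replicate term, GC and exon length offsets (mgcv 1.9.3), and each library left out. Named beside the 10 genes were KDM1A and up to 4 other genes per list that passed, by adjusted p, or the 2 of highest CPM where none passed. Also named were the 3 genes most like NOTCH3. The genes and lists were chosen with earlier results of these data known. EPCAM, CLDN4, KRT7, KRT8, KRT18, KRT19, CDH1, ABCA3 and CDH5, as markers, DLL3, SYP and HES6, and the genes with no count were named after their values were seen. Promoter sequences are from RefSeq (GRCh38.p14). Some pathway genes are counted in the totals but not reported here.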

Additional observations from a re-analysis of the deposited data

How the results depend on the processing

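NOTCH3, NOTCH1, NOTCH2 and RBPJ kept their direction and their side of the threshold in all 16 alternatives. The mean levels and the group differences in NOTCH3 and JAG1 share, which had no test, moved by less than 1 SD in each of their 7 alternatives. Leaving out 1 library could not have moved them by 1 SD, because dropping 1 value shifts a mean by less than that. With 1 library left out, the difference in share ran from 4.25 to 6.21 percentage points for NOTCH3 and from −2.67 to −0.94 for JAG1. For the shares, rescaling to CPM per kilobase was bound to change little, since a library's scale cancels in a share. LFNG passed with upper-quartile scaling (log2 0.60), no filter beyond 1 count in total (0.57), DESeq2 (0.57), the replicate block (0.55), GC and exon length offsets (0.48), those offsets with the replicate block (0.48), and without B35 replicate 1, so 2 of the 10 genes rose in each of these 7 fits. JAG1 passed only with the offsets and replicate block together (log2 −0.34), where 3 of the 10 fell. With 1 library left out, the log2 fold change ran from −0.25 to 0.0645 for JAG2, from −0.38 to −0.29 for HES1, from −0.66 to −0.36 for HES4, from −0.28 to 0.0005 for HEY1 and from 0.41 to 0.77 for LFNG. The number of the 10 genes that rose was then 1 to 2, and of those that fell 0 to 2. Over all genes, 881 to 3342 changed with 1 library left out (587 to 1822 rose, 294 to 1520 fell), 4001 with the GC and exon length offsets (2145 fell) and 3981 with those offsets and the replicate block (2148 fell). Among pathway genes 22 rose with the replicate block and 22 with the offsets, and 6 to 22 with 1 library left out. Falls numbered 5 with no filter, 6 with DESeq2, 5 with the replicate block, 10 with the offsets, 11 with both, and 1 to 5 with 1 library left out. POFUT1, near 0 throughout, turned to −0.0022 with relative log expression scaling and with DESeq2, −0.0039 with no filter, −0.032 with the offsets, −0.0298 with both, and −0.013 without B35 replicate 3, and ran from −0.0738 to 0.0477 with 1 library left out. Fits that leave out a library use fewer samples. For the other shifts the cause was not tested. Deviations of same-numbered libraries from their group means had correlations of 0.163, 0.016 and −0.063. Those of differently numbered libraries ran from −0.222 to 0.249. With 3 libraries a group, such correlations cannot tell whether the numbers pair the samples. The replicate block moved the changed genes from 2276 to 2855. Counting only the bases before the start left 4 of 9 genes with the N-box in place of 6. In the simulation 37.3% of genes changed 1.5-fold were recovered, so a gene that did not pass may still have changed by that much. Smaller changes did pass for some genes, among them HES1 (1.26-fold lower) and HES4 (1.44-fold lower).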

Other observations

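The following genes were chosen after their values were seen. PSENEN, the smallest subunit of gamma-secretase, was at 6.24, 8.69 and 7.61 CPM in controls and 9.55 and 9.28 CPM in B35 replicates 2 and 3, but at 1.86 CPM in B35 replicate 1, where it had 33 counts. TLE5, a short relative of the Groucho corepressors, was at 161 CPM in that library and between 248 and 300 CPM in the other 5. HES4 was lowest in the same library. Neither PSENEN nor TLE5 passed the test (edgeR adjusted p = 0.886 and 0.758).

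The other tested HES genes and HEY2 did not pass the test and differed in sign. HES2 was at 85.5, 110 and 94.7 CPM in controls and 107, 118 and 129 CPM with B35, and HES7 at 7.25, 5.09 and 4.58 CPM and 6.78, 8.71 and 11.9 CPM. Both had a positive log2 fold change, 0.29 ± 0.11 and 0.70 ± 0.24, and neither passed (edgeR adjusted p = 0.115 and 0.0718). HES6 and HEY2 had negative log2 fold changes, −0.38 ± 0.28 and −0.42 ± 0.26, and HES5 was at 0.0006 ± 0.19 (edgeR adjusted p = 0.387, 0.316 and 0.999). HES2 made up 8.42% ± 1.09 of HES and HEY FPKM in controls and 13.3% ± 1.36 with B35 (SD, n = 3 each). A share also rises when the sum falls, and that sum was 211.5 FPKM in controls and 162.8 FPKM with B35. HES2 itself was at 17.8 and 21.5 FPKM. NRARP, a feedback inhibitor that is widely used as a readout of NOTCH activity, was at 29.2, 30.7 and 30.6 CPM in controls and 29.5, 29.6 and 34.1 CPM with B35 (log2 0.04 ± 0.11, edgeR adjusted p = 0.833), with overlapping groups.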
